A study of Arabidopsis thaliana with 6 samples.

Results

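Of the 142 distinct mature sequences in a small RNA table from Arabidopsis thaliana leaf explants, 56 were 24 nt long, and their levels, genome positions and predicted targets are described here. The length of an entry was that of its longest aligned fragment in the authors' sheet of predicted targets, with gaps removed. No measured level thus entered the rule, though the members were chosen with earlier results of these data known. Entries that carried the same sequence with identical counts were counted once, and the 61 entries with a 24-nt sequence out of 178 entries thus became 56 sequences. Each sequence is named by the number of its first entry. The libraries came from 2 genotypes. ein2-1 carries a mutation in EIN2, an endoplasmic reticulum protein needed for the response to ethylene, and Col-0 is the wild type and the stated control. In both genotypes, seedlings 14 days old had spent 1 hour under water, and explants cut from their leaves were then held for 7 days on callus-inducing medium, on which cut tissue forms dividing cells. The upper part of each explant was taken. There were 3 libraries per genotype, biological replicates by the design text, and p-values measure the spread between these libraries. The mutant was 1 allele, all libraries had the same submergence and medium, and neither EIN2 nor any marker gene of the tissue is measured in a table of small RNAs.

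Plants make small RNAs of distinct lengths by distinct routes. Most miRNAs are cut from hairpin transcripts of MIR genes by the Dicer protein DCL1, begin with U, and guide the Argonaute protein AGO1 to messenger RNAs. Most small interfering RNAs one class longer come from repeats and transposons, where RNA polymerase IV and the RNA-copying enzyme RDR2 make double strands that DCL3 cuts. They often begin with A and load into AGO4 and its relatives, which guide DNA methylation to the matching loci. A minority of MIR genes also give long miRNAs cut by DCL3.

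The sequences below are those on which the results turn, shown because they were the most abundant (entries 47 and 201), were called in the same direction under every scaling tried (the next 7), or shared a seed (entries 3 and 39). They are written 5′ to 3′ as deposited, with the seed, bases 2 to 8, in capitals.
entry 47: aCGAAUCAaacagugaaaagugac
entry 201: aAAACAAAcccugaacuaaaaccu
entry 104: uCGGAUCCuggauaacauguuuaa
entry 190: aAGAGAAAacuuggagaguagaca
entry 61: aCCGGAUUagucgauaggauuuau
entry 102: gGAGAAUCguucgguagugaagac
entry 258: uCUUGGCCggaaauguugaauguc
entry 164: aGCCAUUUagccaaauucggacga
entry 234: gGUACUGAcgaaugauuguuuuag
entry 3: aACGAUUAgaaaacagauugaacc
entry 39: aACGAUUAcauuucuguagagaga
The 56 sequences had 55 different seeds, and entries 3 and 39 were the one pair with a seed in common. Past the seed these 2 diverged. Entry 3 was too scarce to be tested and entry 39 was not called.

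The last of the called sequences, entry 245, was the one 24-nt sequence that read along a MIR gene in the direction of its transcript. That gene, MIR848, lies in an intron of AT5G13890. It is set here beside the annotated 22-nt miR848, read from the TAIR10.1 reference at chr5:4479448-4479469 on the minus strand, with the bases that both share in capitals.
miR848: ugacaUGGGACUGCCUAAGCUA
entry 245: UGGGACUGCCUAAGCUAaaggcuu
Entry 245 lay at chr5:4479441-4479464 on the minus strand. Its 5′ end was 5 bases further along than that of miR848, and the 2 shared 17 bases, so that their seeds differed.

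The 24-nt sequences shared features that length had not selected. A was the first base in 46 of 56 (82.1%), U in 5, G in 4 and C in 1. Of the 58 sequences of 21 nt, 15 (25.9%) began with A and 38 (65.5%) with U, and A makes up 32.0% of the nuclear genome. The median share of G and C was 37.5% in 24-nt sequences and 42.9% in 21-nt sequences, with 36.0% in the nuclear genome. The last base was most often U (22 of 56) or C (19 of 56).

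Exact matches of the 24-nt sequences to the TAIR10.1 genome lay mostly outside functional genes. The 56 sequences had 272 matches over the 5 nuclear chromosomes and 0 in the organelle genomes. Of these matches, 181 lay between annotated genes, 83 in pseudogenes, 5 in protein-coding genes, 2 in other annotated genes and 1 at a MIR gene. No match touched a coding exon. The annotation used here has no class of its own for transposon genes.

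By the place of most of their matches, 33 sequences (58.9%) were between genes and 18 (32.1%) in pseudogenes, which cover 8.78% of the nuclear genome. In MIR genes, in the direction of the transcript, there was 1 of 56 24-nt sequences (1.79%), against 55 of 58 21-nt sequences (94.8%). Of the 8 sequences of 23 nt, 5 lay between genes and 1 at a MIR gene. Places were not tested, since sequences from repeats share their source.

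The surroundings of the matches held fewer genes. Within 100 kb on each side there was a median of 34.8 protein-coding genes for 24-nt sequences and 52.8 for 21-nt sequences, and evenly spaced points of the genome had a median of 52. The 8 sequences of 23 nt had a median of 25.2. The 24-nt sequences ranged from 4 to 62 genes, and 19 of 56 had fewer than 20, against 1 of 58 sequences of 21 nt. The 24-nt sequences thus leaned to gene-poor stretches, without being limited to them.

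**Figure D1:**
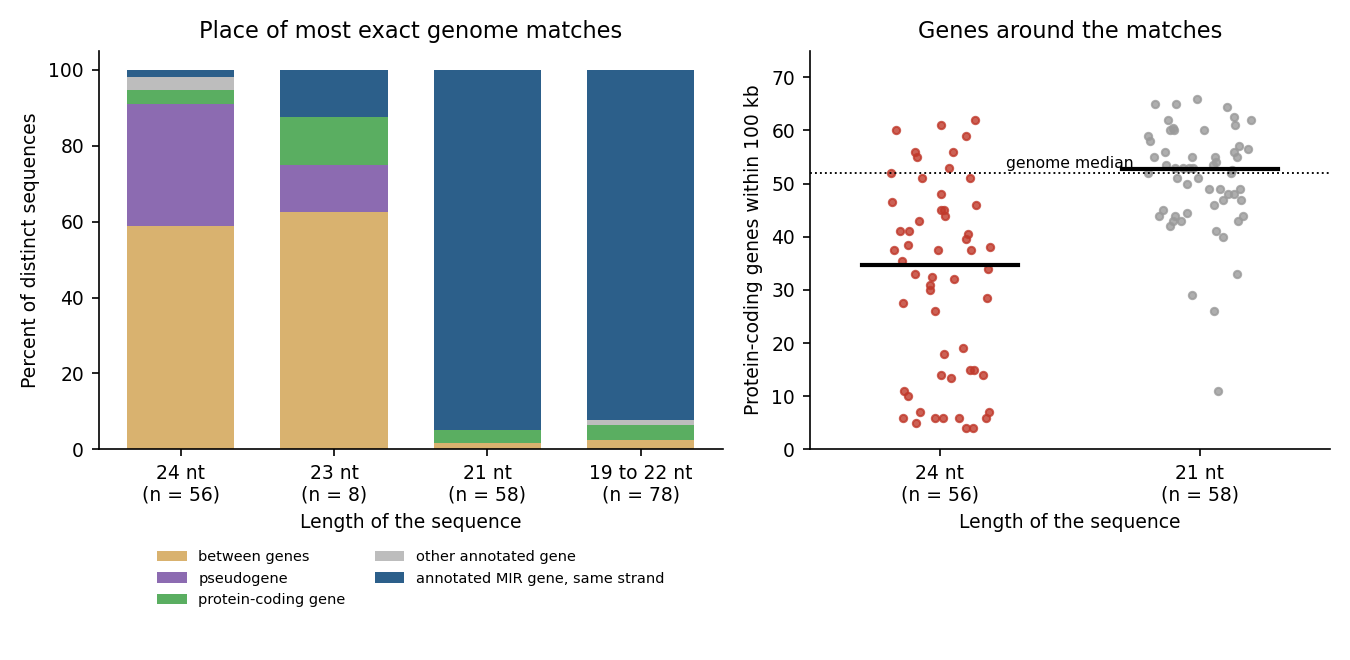
Left, percent of distinct sequences of each length by the annotated place of most of their exact genome matches, where 19 to 22 nt includes the 21-nt sequences. Right, protein-coding genes within 100 kb on each side of the matches, 1 point per sequence (median over its matches), with bars at the medians of 34.8 (24 nt) and 52.8 (21 nt) and a dotted line at the genome's 52.

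Copy number separated the 24-nt sequences among themselves. Of 56, 29 matched the genome once and 16 matched it 5 times or more, with entry 30 at the top with 26 matches. Among 21-nt sequences 2 of 58 had 5 matches or more, and among 23-nt sequences 3 of 8 did. Entry 270 had 18 matches, all in pseudogenes, and entry 104 had 17, all between genes on 5 chromosomes. Entry 201 had 20 matches, all between genes, of which 18 lay within 2 kb of a protein-coding gene.

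Entry 47 stood beside inverted copies of itself. It had 15 matches, 13 between genes and 2 in introns of AT1G50050, all of them within 2 kb of a protein-coding gene. At 12 of the 15, an ungapped stretch within 300 bases could pair with all 24 bases, G to U pairs included, as the arms of a hairpin would. Entry 201 had such a stretch at 2 of its 20 matches. It also had opposite-strand copies of itself further apart than this window, so that they were not counted. Examples were chr1:4110173-4110196 (plus) with chr1:4110929-4110952 (minus), and chr5:2347801-2347824 (plus) with chr5:2348557-2348580 (minus). Over the 56 sequences, 7 had a stretch that could pair with 22 or more of the 24 bases at 1 match or more, entries 47, 102, 135, 197, 201, 205 and 265.

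The 24-nt sequences were scarce in both genotypes. They held 0.237%, 0.220% and 0.265% of the counts over distinct sequences in ein2-1 replicates 1 to 3, against 0.244%, 0.220% and 0.213% in Col-0 replicates 1 to 3. These ranges overlapped. The means were 0.241 ± 0.0226% in ein2-1 and 0.226 ± 0.0165% in Col-0 (SD, n = 3 each). The binomial 95% interval (Wilson) of a single library was at widest 0.205% to 0.237% (Col-0 replicate 2). Such intervals cover counting error only, since copies made in amplification were not told apart. With the most abundant sequence of the table taken out of the totals, the shares were 0.377%, 0.353% and 0.432% in ein2-1 and 0.330%, 0.293% and 0.285% in Col-0, and these did not overlap. The difference in means, 0.0151 percentage points, was then 0.0850, and without ein2-1 replicate 3 it was 0.00293 on the full totals. The sequence taken out, entry 130 of 21 nt, was itself called higher in ein2-1 (log2 fold change 1.08, edgeR adjusted p = 5.2e-06). Its removal thus lowered the ein2-1 totals by a larger part than the Col-0 totals.

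These shares came from 1437, 2175 and 1960 counts in ein2-1 and 1360, 733 and 717 counts in Col-0. The totals over distinct sequences were 606476 to 987089 in ein2-1 and 333025 to 556692 in Col-0. Those totals cover the listed entries and are not the depth of sequencing. Each of the 56 sequences was counted in every library. The median count per sequence was 10.5, 15.5 and 13.5 in the ein2-1 libraries and 12, 7 and 7 in the Col-0 libraries.

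A few sequences carried much of the class. The 3 most counted made up 48.8% to 51.3% of the 24-nt counts in ein2-1 libraries and 34.9% to 38.7% in Col-0 libraries. Entry 47 and entry 201 were the 2 with over 100 counts per library on average, and 22 of 56 had under 10. Levels are given from here on as CPM, after TMM adjustment. These are counts scaled to a common library total over the entries that passed the count filter described below.

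At the low counts of most sequences, counting alone would already give a wide spread between replicates. The coefficient of variation of CPM had a median of 30.1% over the 3 ein2-1 libraries and 29.3% over the 3 Col-0 libraries, and the mean counts alone would give medians of 28.1% in ein2-1 and 34.0% in Col-0. The widest was 99.5% for entry 3 in ein2-1, with 1, 3 and 8 counts. The coefficient was above that of counting in 34 of 56 sequences in ein2-1 and 26 in Col-0. A coefficient from 3 libraries falls more often below than above its true value, so these figures can understate spread beyond counting. Entries 47 and 201, the most counted, varied more than counting alone would give in both genotypes. Entry 47, for example, had 475.5 ± 98.8 CPM in ein2-1 (SD, n = 3) from 402, 630 and 620 counts. Across the 56 sequences, Spearman's rank correlation between 2 libraries was 0.78 to 0.84 within ein2-1, 0.58 to 0.69 within Col-0 and 0.30 to 0.47 between the genotypes. These describe sequences that share libraries and are not tests.

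The comparison of ein2-1 with Col-0 asks which of these small RNAs depend on EIN2 for their level. Counts of all entries were fitted together (edgeR quasi-likelihood test, two-sided, Benjamini-Hochberg adjustment over 153 tested entries, threshold 0.05). Entries with the same sequence and counts entered this fit separately. A library's value in bulk tissue cannot tell fewer cells that make an RNA from less RNA per cell. The filter on low counts kept 37 of the 56 sequences. The 19 left out had 1 to 23 counts in a library and mean levels of 4.68 to 9.97 CPM.

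Among the 37 tested 24-nt sequences 14 were called higher and 6 lower in ein2-1, and 17 were not called. With 1 entry per distinct sequence in the fit, 11 were called higher and 6 lower. Over all 118 distinct sequences tested, 66.9% were called, 34.7% higher and 32.2% lower. The share of 24-nt sequences called higher, 37.8%, was thus near that background, and the share called lower was 16.2%. The tested 19-nt to 23-nt sequences had 27 of 81 called higher and 32 lower. The median log2 fold change was 0.06 for 24-nt sequences, 0.05 for the shorter ones and 0.06 over all.

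The filter itself bears on these counts. Its minimum of 9.51 CPM applies to counts scaled to library totals before the TMM adjustment, unlike the levels given elsewhere. Entry 59, for example, was above it in each Col-0 library, with TMM levels of 7.96 and 8.30 CPM in Col-0 replicates 1 and 2. The split that follows was not repeated on the TMM scale. Only 12 of the 37 lay above the minimum in each of the 6 libraries, and of these 7 were called higher and 1 lower. A further 8 were above it in each ein2-1 library but not in each Col-0 library, 13 the reverse, and 4 in neither genotype throughout. Of the 8 kept through ein2-1, 7 were called higher, namely entries 61, 104, 135, 164, 183, 258 and 270. Of the 13 kept through Col-0, 5 were called lower, namely entries 60, 160, 211, 234 and 245. The p-values given below for these entries come after that selection. A filter that a sequence can pass through 1 genotype favours sequences that differ, so the counts over the 37 describe those kept and not all 56.

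The balance also turned on the scaling. Library-size scaling moved the median fold change of all tested sequences by -0.69 on the log2 scale against TMM, and then 7 of the 24-nt sequences were called higher and 16 lower. With the most abundant sequence of the table, entry 130, itself called higher in ein2-1, left out of the TMM fit, 18 were higher and 2 lower. Over 6 such scalings, 7 sequences were called higher in each, 2 were called lower in each, and 0 had calls of both directions. The changes below are therefore relative to the TMM scale.

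**Figure D2:**
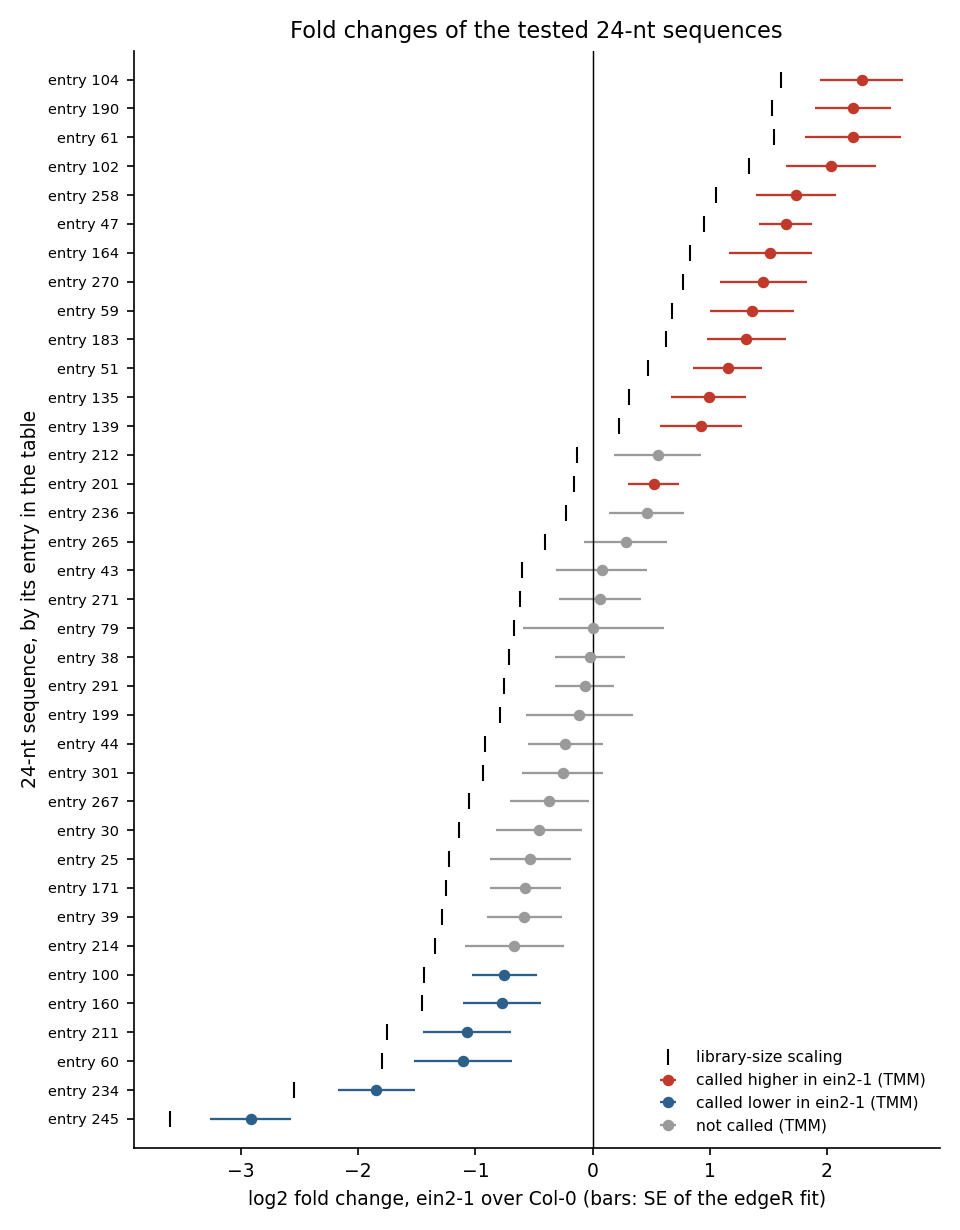
Log2 fold change, ein2-1 over Col-0, of the 37 tested 24-nt sequences under TMM scaling (points, bars are the SE of the edgeR fit) and under library-size scaling (ticks). The ticks lie to the left of the points throughout, and 14 points are called higher and 6 lower.

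Entry 47, the most abundant 24-nt sequence, was higher in ein2-1. It had 402, 630 and 620 counts in ein2-1 replicates 1 to 3, against 200, 105 and 98 counts in Col-0 replicates 1 to 3. All ein2-1 libraries lay above all Col-0 libraries once scaled, at 475.5 ± 98.8 CPM in ein2-1 and 150.7 ± 23.8 CPM in Col-0 (SD, n = 3 each). The log2 fold change was 1.65 (SE 0.23, edgeR adjusted p = 2.1e-05) and 0.95 under library-size scaling. Its 3 entries carry identical counts. With entry 139 it was 1 of the 2 members in the authors' deposited list, which names both as unknown.

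The 4 largest rises were those of entries 104, 190, 61 and 102, all low in Col-0. Entry 104 had 44, 69 and 61 counts in ein2-1, against 10, 12 and 4 counts in Col-0, and its log2 fold change was 2.30 (SE 0.35, edgeR adjusted p = 6.2e-05). Entry 190 had 39, 78 and 74 counts in ein2-1, against 12, 9 and 9 counts in Col-0, with 2.22 (SE 0.33, edgeR adjusted p = 4.0e-05). Both lay higher in every ein2-1 library than in any Col-0 library. Entry 190 matched the genome once, at chr3:20727443-20727466 on the minus strand, 125 bases downstream of AT3G55860.

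Entry 61 lay antisense to an intron of the protein-coding gene AT1G62920, at chr1:23306023-23306046. It had 12, 27 and 20 counts in ein2-1, against 2, 3 and 4 counts in Col-0, and its log2 fold change was 2.22 (SE 0.41, edgeR adjusted p = 0.00024). No Col-0 library reached the filter's minimum for it, so that it was tested through its ein2-1 values, and without ein2-1 replicate 2 or 3 it was not tested. Entry 102 matched once between genes, at chr2:6390476-6390499, where a nearby stretch could pair with 23 of its 24 bases. It had 37, 65 and 87 counts in ein2-1, against 11, 12 and 11 counts in Col-0, with 2.04 (SE 0.38, edgeR adjusted p = 0.00029).

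The other rises were smaller. Entry 258 had 19, 28 and 29 counts in ein2-1, against 9, 3 and 5 counts in Col-0 (log2 fold change 1.74, edgeR adjusted p = 0.00045). Entry 164 had 29, 36 and 40 counts in ein2-1, against 17, 4 and 7 counts in Col-0 (1.52, edgeR adjusted p = 0.0017). These 2 complete the 7 that were called higher under each scaling. Of these 7, entries 61, 104, 164 and 258 passed the filter through their ein2-1 values. Entries 270, 59, 183 and 51 had log2 fold changes of 1.46, 1.36, 1.31 and 1.15, with edgeR adjusted p of 0.0030 to 0.0036. In each of these 4 the genotypes did not overlap under TMM scaling, and none was called under library-size scaling, where their fold changes were 0.47 to 0.77.

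Entries 139 and 135 lost their calls with 1 library left out. Entry 139 had 0.92 (edgeR adjusted p = 0.030), and its genotypes overlapped, with 33, 82 and 72 counts in ein2-1 and 44, 12 and 19 counts in Col-0. It had an adjusted p of 0.063 without ein2-1 replicate 2 and 0.077 without ein2-1 replicate 3. Entry 135 had 0.99 (edgeR adjusted p = 0.013), and 0.062 as adjusted p without ein2-1 replicate 3. DESeq2 gave entry 135 an adjusted p of 0.16.

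Entry 201, the second in abundance, was at the threshold. It had 276, 362 and 250 counts in ein2-1, against 249, 120 and 108 counts in Col-0. On the scaled level the genotypes lay close together without overlap, at 254.7 ± 21.1 CPM in ein2-1 and 176.5 ± 39.4 CPM in Col-0 (SD, n = 3 each). The log2 fold change was 0.52 (SE 0.22, edgeR adjusted p = 0.0479) and turned to -0.16 under library-size scaling, and it was called under 2 of the 6 scalings. The adjusted p was 0.096 without ein2-1 replicate 1 and 0.070 without ein2-1 replicate 2.

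The largest fall was that of entry 245, the sequence at MIR848. It had 3, 10 and 5 counts in ein2-1, against 52, 28 and 24 counts in Col-0, or 4.88 ± 1.93 CPM in ein2-1 and 38.9 ± 7.04 CPM in Col-0 (SD, n = 3 each). Every Col-0 library was well above every ein2-1 library. The log2 fold change was -2.92 (SE 0.34, edgeR adjusted p = 5.8e-06), and -2.49 to -3.60 over the 6 scalings. No ein2-1 library reached the filter's minimum for it, so that it was tested through its Col-0 values. No other listed sequence held the 17 bases that it shares with miR848.

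Entry 234 was the other fall that held under each scaling. It had 8, 18 and 18 counts in ein2-1, against 40, 32 and 44 counts in Col-0. The genotypes did not overlap, and the log2 fold change was -1.85 (SE 0.33, edgeR adjusted p = 0.00019). It matched the genome once, at chr4:15502488-15502511 on the plus strand, within an intron of AT4G32060 and in the same direction as that gene. Entries 245 and 234 were thus both intronic, but so was entry 61 (antisense), which was called higher under each scaling.

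The remaining 4 falls were uncertain. Entry 60 had a log2 fold change of -1.11, entry 211 -1.07, entry 160 -0.77 and entry 100 -0.75, with edgeR adjusted p of 0.0288, 0.0212, 0.0496 and 0.0257 in that order. Entry 100 had 15, 24 and 14 counts in ein2-1, against 32, 15 and 20 counts in Col-0, and was not called with any 1 library left out (adjusted p 0.056 to 0.27). Entry 60 was not called without Col-0 replicate 2 (adjusted p 0.18), Col-0 replicate 3 (0.13) or ein2-1 replicate 3 (0.093). Entry 211 was not called without Col-0 replicate 1 (0.325), Col-0 replicate 2 (0.084), ein2-1 replicate 1 (0.079) or ein2-1 replicate 2 (0.12), and entry 160 kept its call only without ein2-1 replicate 1.

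**Figure D3:**
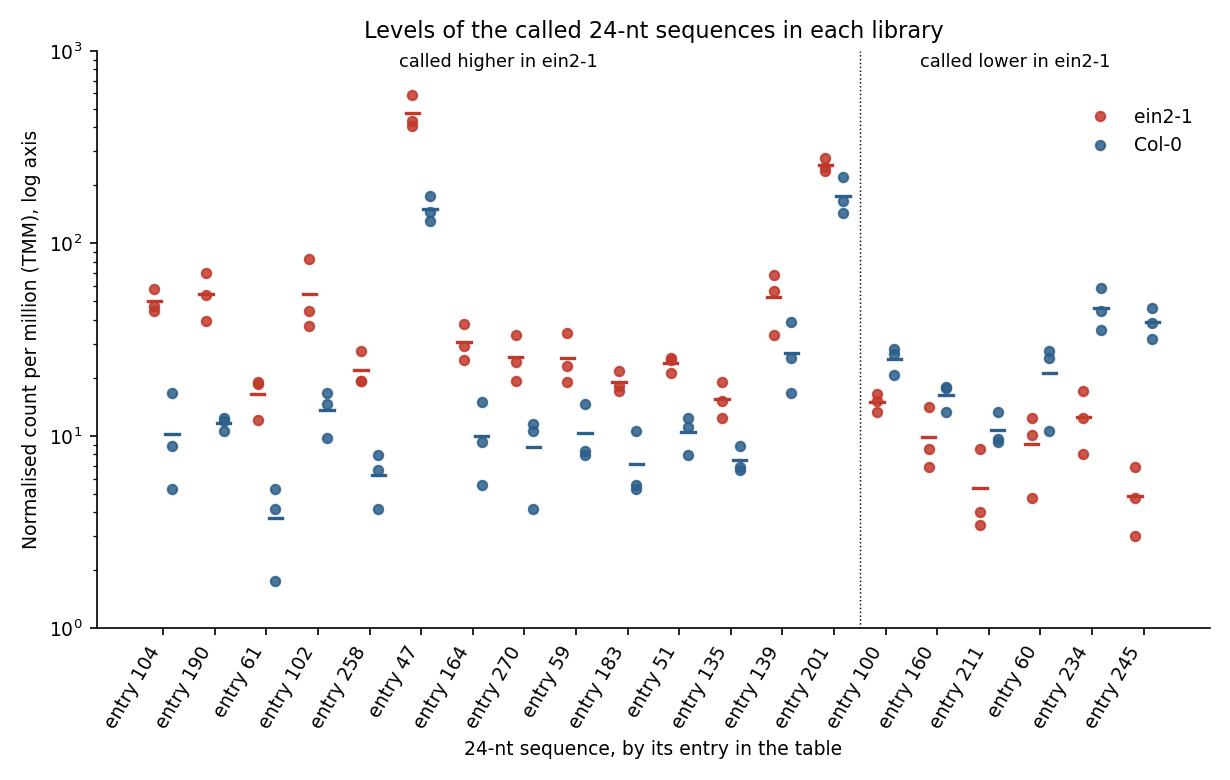
Level in CPM (TMM, log axis) of the 20 called 24-nt sequences in each of the 3 ein2-1 libraries (left of each pair) and 3 Col-0 libraries (right), with bars at the means. Entry 47 (475.5 CPM in ein2-1, 150.7 CPM in Col-0) and entry 201 (254.7 and 176.5 CPM) stand above the rest, and entry 245 has the widest gap.

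Whether or not a call was made, 13 of the 37 tested sequences lay higher in every ein2-1 library than in any Col-0 library, and 5 lay lower in every one. Over all 118 tested sequences, 35.6% lay higher and 31.4% lower without overlap. Of the calls, 13 rises and 4 falls were of this kind. Of the abundant members that were not called, entry 291 had 59, 69 and 62 counts in ein2-1 and 77, 39 and 37 counts in Col-0. Entry 171 had a log2 fold change of -0.57 (edgeR adjusted p = 0.10) and entry 39 had -0.58 (edgeR adjusted p = 0.11).

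**Figure D4:**
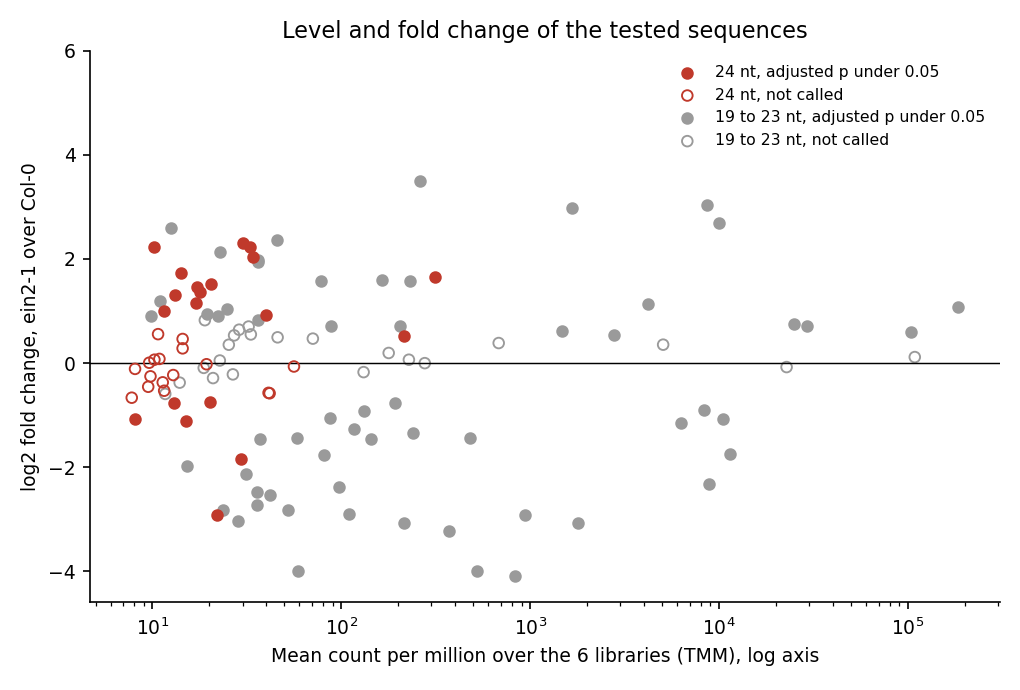
Mean level over the 6 libraries (TMM CPM, log axis) against log2 fold change, ein2-1 over Col-0, for the 118 tested sequences, with 24-nt sequences in red and shorter ones in grey, filled where the edgeR adjusted p is under 0.05. Most 24-nt sequences lie at the low end, and 20 of 37 are called.

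The places of the sequences in each class of call were as follows. Of the 14 called higher, 12 lay between genes and 1 in a pseudogene, and of the 6 called lower 2 lay in pseudogenes. Of the 17 not called, 4 lay in pseudogenes, and of the 19 below the filter 11 did. All 17 sequences not called began with A, as did 9 of the 14 called higher and 3 of the 6 called lower. These are counts without a test.

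Predicted target genes were taken from the authors' psRNATarget table. Its Expectation is a penalty for imperfect pairing, and the sheet stops at 5. A lower value is a better match by that score, which need not follow the number of paired bases. No messenger RNA was measured, so a site is a prediction only. The 24-nt sequences had 5199 predicted sites on 4798 transcripts of 2790 genes. The software classed 81.3% of these sites as cleavage, and 82.7% of those of shorter sequences.

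Each 24-nt sequence had 21 to 95 predicted target genes, with a median of 53.5, against 83 for the shorter sequences. The best Expectation of a sequence ranged from 0.5 to 3.5 with a median of 2.5, and shorter sequences had a median of 1.5. An Expectation of 2 or less was reached by 22 of 56 24-nt sequences (39.3%) and 61 of 86 shorter ones (70.9%). Of all sites, 1.37% for 24-nt sequences and 4.62% for shorter ones were at 2 or less. No test of these differences between lengths was made.

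**Figure D5:**
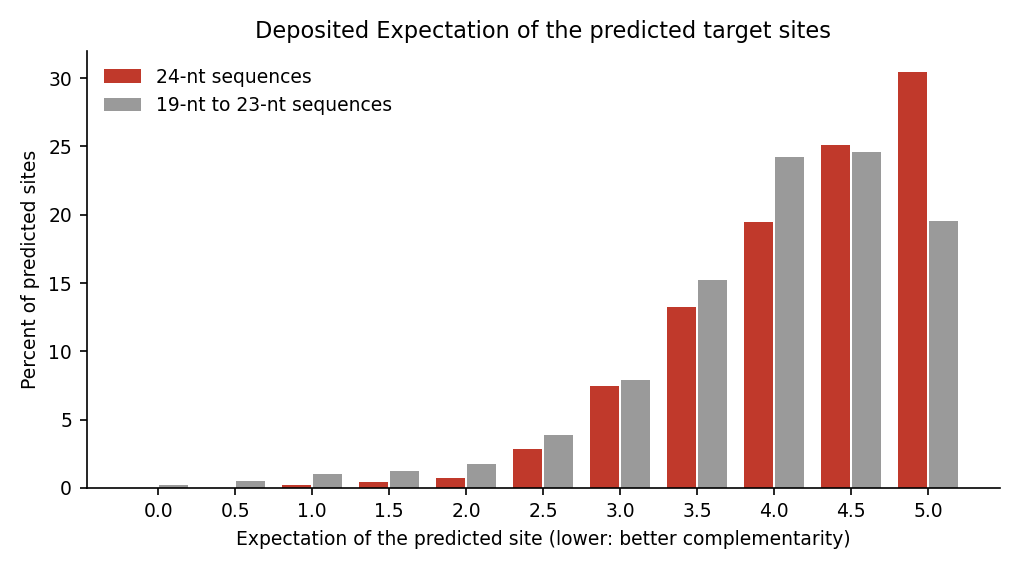
Percent of predicted sites at each deposited Expectation for the 5199 sites of 24-nt sequences (red, left) and those of 19-nt to 23-nt sequences (grey, right). At an Expectation of 5 there were 30.5% of the 24-nt sites and 19.5% of the others.

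The predicted targets of different 24-nt sequences were largely separate. Of the 2790 genes, 191 had sites of 2 or more of the sequences and 12 of 3 or more. The most was 4, for the cation-chloride co-transporter gene AT1G30450 and the GDSL-like lipase gene AT1G58520. In 0 of 2995 pairs of sequence and target gene did that gene hold an exact genome match of the sequence. Entry 190 had the most target genes, 95.

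The best Expectation was 1 or less for 4 of the 24-nt sequences, entries 3, 47, 183 and 201. The site with the lowest Expectation, 0.5, was that of entry 47 on AT1G66100, which encodes a plant thionin, a small defence peptide. Entry 183 had an Expectation of 1 on AT4G22770, an AT-hook DNA-binding protein. Both sites are shown 5′ to 3′ as messenger RNA, with the bases that form A to U or G to C pairs in capitals.
AT1G66100 site of entry 47: GUCACUUUUCACUGUUUGAUUuGU
AT4G22770 site of entry 183: CAUCUCCAUCaAUGGUUUCUCAUU
Each paired at 23 of 24 bases. Both sites lay in the 3′ UTR of the target, at chr1:24605542-24605565 and chr4:11963726-11963749, both on the minus strand.

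ACC synthases make the direct precursor of ethylene, in the step that usually limits its synthesis. The sheet named 6 ACC synthase genes as predicted targets, and all 6 had a site of entry 201. Entry 104 had sites on 3 of them, ACS7 at an Expectation of 2 and ACS4 and ACS8 at 2.5, each across an exon junction. In all, 2 of 56 24-nt sequences and 9 of 86 shorter sequences had a site on an ACC synthase, so that such sites were not particular to the class. The family was looked at after its sites were seen and was not among the lists below.

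The sites of entry 201 lay within the coding sequence of each gene, and its seed was paired in full at all 6. At the ACS8 site 18 of 24 bases formed A to U or G to C pairs, and 2 formed G to U pairs. The AT4G22770 site of entry 183, with the same Expectation of 1, had 23 and 0. The Expectation was 1 for ACS8, 2 for ACS5, ACS7 and ACS9, and 3.5 for ACS4 and ACS11. The sites are shown with paired bases in capitals as before.
ACS8 site of entry 201: ccGggUUgGUUuAGGGUUUGUUUU
ACS7 site of entry 201: gucggaUgGUUuAGGGUUUGUUUU
ACS5 site of entry 201: ccGggUUgGUUuAGGGUUUGUUUc
ACS4 site of entry 201: ccGggUUgGUUuAGaGUUUGUUUc
The ACS9 site had the same bases as that of ACS5. The 4 sites shown differ at their 5′ end, at 1 inner base and at the last base, which faces the first base of entry 201.

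Other best sites of named sequences fell on varied genes. Entry 258 had an Expectation of 1.5 on REV3, a DNA polymerase of damage tolerance, and entry 60 had 1.5 on NHX2, a vacuolar sodium and potassium exchanger. Entry 171 had 1.5 on PDLP6, a plasmodesma protein. The best site of entry 245 had 2.5 on the 5′ UTR of MYB118, a MYB transcription factor, and that of entry 270 had 2.5 on the 3′ UTR of NAC047, a NAC transcription factor.

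Lists of genes related to the class, the genotype and the treatment were looked up in the predictions. Of 30 matched genes of RNA-directed DNA methylation and methylation upkeep, 4 had a site of a 24-nt sequence. These were HEN1, which methylates small RNA ends (Expectation 3.5, entry 212), SUVH9, which helps to recruit RNA polymerase V (4, entry 291), AGO4 (4.5, entry 197) and KTF1, a partner of that polymerase (5, entry 39). Entries 212, 291 and 39 were not called, and entry 197 was below the count filter. Of 13 matched ethylene genes, the receptor gene EIN4 had a site (2.5, entry 174), and that sequence was below the count filter.

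Of 13 genes of the low-oxygen response, 2 had a site. The fermentation enzyme PDC2 had one of entry 100 at an Expectation of 5, and the transcription factor LBD41 had one of entry 290 at 4.5. Of 15 genes of callus formation and regeneration 0 had a site, and likewise 0 of 7 genes of the SABATH methyltransferase family. No test was made of these counts.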

How the data were processed

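Small RNA libraries of 3 ein2-1 and 3 Col-0 samples were compared. The tool cutadapt, which trims adapters, and the build TAIR10 are named per the submitters' processing notes. How reads were aligned and counted is not given in the sources used here. Counts as deposited are raw counts per miRNA precursor entry, per the file headers. The deposited log2 fold change and its p-value with FDR are the authors' own per the file headers, and were read to check directions and the authors' list. The Expectation is the authors' psRNATarget score, per the file headers. Whole-number counts with differing totals were tested as deposited.

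Counts were fitted with edgeR 4.0.16 in R 4.3.3 (TMM, filterByExpr with its defaults, quasi-likelihood test, genotype as the only term), and the fit was also run on simulated data. The simulation used TMM only, with rises and falls drawn at equal odds, so it does not bear on the choice of scaling. A first entry stands for each distinct sequence. Sequences were matched exactly to TAIR10.1 with its RefSeq annotation, in which 13694 of 13696 target transcripts lay inside the gene at their deposited coordinates. A pairing stretch was sought within 300 bases on each side. Pairing at target sites was counted base by base from the deposited fragments, both read 5′ to 3′.

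The members, the gene lists and the rule for named sequences were chosen with earlier results of these data known. That rule took the largest called rises and falls without overlap (at most 10 each), the 5 highest in level, in number of target genes and in Expectation, and any sequence at a MIR gene. Entries 135, 139 and 160, called but outside the rule, and others named for 1 feature (such as entries 3, 30, 197, 205 and 265) were named after their values were seen. Of 82 listed gene symbols 78 were matched, and CLSY2, CLSY3, CLSY4 and ERF1 were not. Of 21 entries with more than 1 aligned fragment, the longest was used. Alternatives were RLE and library-size scaling, other filters and thresholds, 1 entry per distinct sequence, a replicate block, limma-voom 3.58.1, DESeq2 1.42.0 and each library left out. A further 2 were chosen after seeing the data, namely TMM without the most abundant sequence, and 1 entry per distinct sequence together with library-size scaling. Tables and figures used Python 3.11.15, pandas 2.3.3 and matplotlib 3.10.9.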

Additional observations from a re-analysis of the deposited data

How the results depend on the processing

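Against 14 called higher, 6 called lower and a median log2 fold change of 0.06 for the 24-nt sequences, library-size scaling gave 7, 16 and -0.62, and with 1 entry per distinct sequence 9, 13 and -0.43. TMM with 1 entry per distinct sequence gave 11 higher, 6 lower and a median of -0.16. TMM without the most abundant sequence gave 2 lower and a median of 0.60, no filter 2 and 0.26, DESeq2 3 and -0.060, and at least 10 counts in 3 libraries a median of 0.28. An adjusted p under 0.01 left 2 lower. Leaving out each library gave 11 to 15 higher, 2 to 5 lower and medians of -0.019 to 0.44. Of the calls, 10 of 14 rises and 2 of 6 falls were made in each of these 6 fits. The replicate block gave 14 higher, 4 lower and a median of 0.02. Same-numbered libraries had correlations of deviations of 0.21, -0.05 and 0.17, so that the numbers were not taken as pairs. Entry 201 turned to -0.16 under library-size scaling. Entry 291, at -0.07 and not called, turned to 0.087 without a filter, to 0.37 without the most abundant sequence, and ranged from -0.13 to 0.25 with a library left out. The share of 24-nt counts was 0.0151 percentage points higher in ein2-1 than in Col-0. Without the most abundant sequence, itself called higher in ein2-1, the difference was 0.0850 and the libraries no longer overlapped. It was 0.00293 to 0.0253 with a library left out. Predicted target genes numbered 2790, against 1305 at an Expectation of at most 4 and 364 at most 3. The cause of these shifts was not tested. Counts of about 10 per library limit most members.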

Other observations

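Among the 19 sequences of 24 nt below the count filter, 2 had ein2-1 libraries entirely above or below the Col-0 libraries, 1 each way. Over the 118 tested sequences of all lengths 35.6% lay higher and 31.4% lower in this way. Entry 290 had 5, 23 and 17 counts in ein2-1, against 5, 2 and 3 counts in Col-0, and lay higher in every ein2-1 library once scaled, at 12.3 ± 6.31 CPM in ein2-1 and 3.72 ± 0.857 CPM in Col-0 (SD, n = 3 each). Entry 163 had 6, 7 and 3 counts in ein2-1, against 8, 5 and 8 counts in Col-0, and lay lower in every ein2-1 library. It matched the genome once, 29 bases downstream of the protein-coding gene AT3G29050. Both were named after their values were seen, and neither was tested.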
